A study of Rattus norvegicus with 9 samples.

Results

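10 genes of the transforming growth factor beta (TGF-beta) and bone morphogenetic protein (BMP) pathway were followed in HEI-OC1 cells given cisplatin, neomycin or phosphate-buffered saline (PBS). They were the inhibitor of DNA binding genes Id1, Id2, Id3 and Id4, the inhibitory SMAD genes Smad6 and Smad7, and the ligand genes Bmp4, Inhba, Tgfb1 and Tgfb2. The genes were chosen by symbol, with earlier results of these data known, and all 10 were found among the 19608 genes of the deposited expression table.

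HEI-OC1 is an immortalized auditory line, derived from the cochlea and described in the labels as hair cell-like. RNA was sequenced from 9 samples, 3 given cisplatin, 3 given neomycin and 3 given PBS, each for 24 h. Cisplatin crosslinks DNA, neomycin is an aminoglycoside antibiotic, and both damage hearing. Doses were not stated in the labels. The cell line labels carry a different final number in each sample (HEI-OC1 to HEI-OC9) and were read as 1 line, and nothing says whether the 3 of a treatment were separate cultures, so the p-values reflect variation among these 9 libraries and it may be technical only.

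Levels are given in FPKM, the number of fragments per kilobase of gene, scaled to the mapped fragments of the library. Reads recovered from these values numbered 27500797 to 40187049 per library. The cells carried few hair cell transcripts. Of 13 hair cell marker genes analysed, Myo6 and Myo7a reached a mean of 1 FPKM over the 9 libraries, and 9, including Pou4f3, Gfi1 and Otof, stayed below 0.1 FPKM in every library. Of 9 supporting cell marker genes analysed, Sox9, S100a1, Lfng, Fgfr3 and Cdkn1b reached that mean, and 4 stayed below 0.1 FPKM in every library. Of 12 fibroblast marker genes 11 passed 1 FPKM, and the 12 together summed to 4456 to 4791 FPKM in cisplatin libraries, 10107 to 10198 FPKM in neomycin libraries and 11093 to 11550 FPKM in PBS libraries.

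Ligands of the TGF-beta family bind paired receptor kinases, which phosphorylate SMAD transcription factors. TGF-beta and activin act mainly through SMAD2 and SMAD3, and BMPs act through SMAD1, SMAD5 and SMAD9. ID proteins lack a DNA-binding region and hold E proteins and other bHLH factors off DNA, and their genes are classical BMP targets. SMAD6 and SMAD7 are induced by the pathway and block its receptors, which forms a feedback loop. Only mRNA was measured here, and whether pathway signalling lay behind any change in it was not tested. In the developing cochlea ID proteins are known to hold back hair cell differentiation.

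The upstream sequences of 4 members are shown, namely Id1, Id2 and Inhba, which were higher with cisplatin, and Id3, which was lower. Id4, Smad6, Smad7 and Tgfb2 were also higher and Tgfb1 was also lower, and their sequences are not shown. RefSeq promoter sequences of the rat build GRCr8 were found for 9 of the 10 genes by gene ID. The cell line was derived from mouse, so these are the bases of the rat gene that the deposited identifier names and need not be those of the cells. Each line gives the 250 bases before the annotated start, 5′ to 3′ on the strand of the gene. Capitals mark matches, on either strand, to 6 short motifs. They are the TATA box core spelled TATAAA, the promoter element known by its letters CCAAT, the GC box spelled GGGCGG that SP1-type factors recognise, the E box spelled CAGCTG that bHLH factors recognise, the BMP-type SMAD element spelled GGCGCC, and the SMAD box spelled GTCTG. Id1 lies at chr3:161671314-161671563 (+ strand), Id2 at chr6:47470996-47471245 (- strand), Id3 at chr5:153656041-153656290 (+ strand) and Inhba at chr17:53804509-53804758 (- strand).
Id1: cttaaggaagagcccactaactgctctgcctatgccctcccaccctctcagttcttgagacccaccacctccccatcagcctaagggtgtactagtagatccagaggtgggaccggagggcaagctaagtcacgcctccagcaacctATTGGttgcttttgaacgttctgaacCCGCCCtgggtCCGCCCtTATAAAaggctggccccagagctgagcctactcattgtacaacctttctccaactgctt
Id2: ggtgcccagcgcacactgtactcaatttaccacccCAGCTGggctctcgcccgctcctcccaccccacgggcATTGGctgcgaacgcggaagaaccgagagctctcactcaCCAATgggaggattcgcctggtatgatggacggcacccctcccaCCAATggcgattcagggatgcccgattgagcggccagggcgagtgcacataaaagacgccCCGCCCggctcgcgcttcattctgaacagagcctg
Id3: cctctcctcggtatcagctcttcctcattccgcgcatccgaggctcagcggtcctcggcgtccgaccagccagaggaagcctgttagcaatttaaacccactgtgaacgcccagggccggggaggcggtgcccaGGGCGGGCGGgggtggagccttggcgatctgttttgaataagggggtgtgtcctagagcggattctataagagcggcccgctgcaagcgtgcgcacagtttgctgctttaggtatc
Inhba: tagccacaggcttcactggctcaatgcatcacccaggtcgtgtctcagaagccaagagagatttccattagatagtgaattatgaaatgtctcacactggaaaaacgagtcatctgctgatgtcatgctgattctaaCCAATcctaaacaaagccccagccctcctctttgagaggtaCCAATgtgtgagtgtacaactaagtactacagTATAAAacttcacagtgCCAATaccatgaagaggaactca

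The Id1 and Inhba windows held TATAAA, which 12.9% of the 33469 RefSeq windows of the same length held. CCAAT was in the Id1, Id2 and Inhba windows and in 34.0% of all windows. The GC box GGGCGG was in the windows of Id1, Id2, Id3, Id4, Bmp4 and Smad7 and in 30.5% of all windows. In Id3, and likewise in Bmp4, 2 of its matches overlapped. CAGCTG was in the Id2 and Bmp4 windows and in 12.0% of all windows. Of the elements named for SMADs, GGCGCC was in the Smad7 window alone among the 9 members (8.69% of all windows), and GTCTG was in the Bmp4 window alone (42.9% of all windows). These matches describe letters in short windows and not bound sites.

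Cisplatin moved 9 of the 10 members, 7 of them up and 2 down, and neomycin moved 8, 5 up and 3 down. The test was limma on log2(FPKM + 1), with an adjusted p below 0.05 taken as a call. Over all 10532 tested genes 78.0% were called for cisplatin and 66.2% for neomycin, so these counts lie near the background and the members are described by size and direction. In single directions 47.5% of tested genes were called higher and 30.5% lower with cisplatin, and 37.5% and 28.7% with neomycin. With TMM factors, a rescaling that centres the typical gene, Bmp4 also fell with cisplatin, which gave 7 higher and 3 lower. With neomycin the split of 5 and 3 became 3 higher and 3 lower with TMM factors, and 3 and 2 with quantile normalization. Smad7 and Tgfb2 were the members at least 2-fold higher on this scale with cisplatin, a change that 5.92% of tested genes reached. No member was 2-fold lower with cisplatin (3.36% of tested genes were), and none was 2-fold higher or lower with neomycin (1.08% and 0.65%). The 3 cisplatin libraries lay wholly above the 3 PBS libraries for 7 members and wholly below for 2, beside 48.7% and 31.5% of tested genes. The 3 neomycin libraries did so for 4 and 3 members, beside 38.4% and 29.1%. Both drugs were compared with the same 3 PBS libraries.

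**Figure D1:**
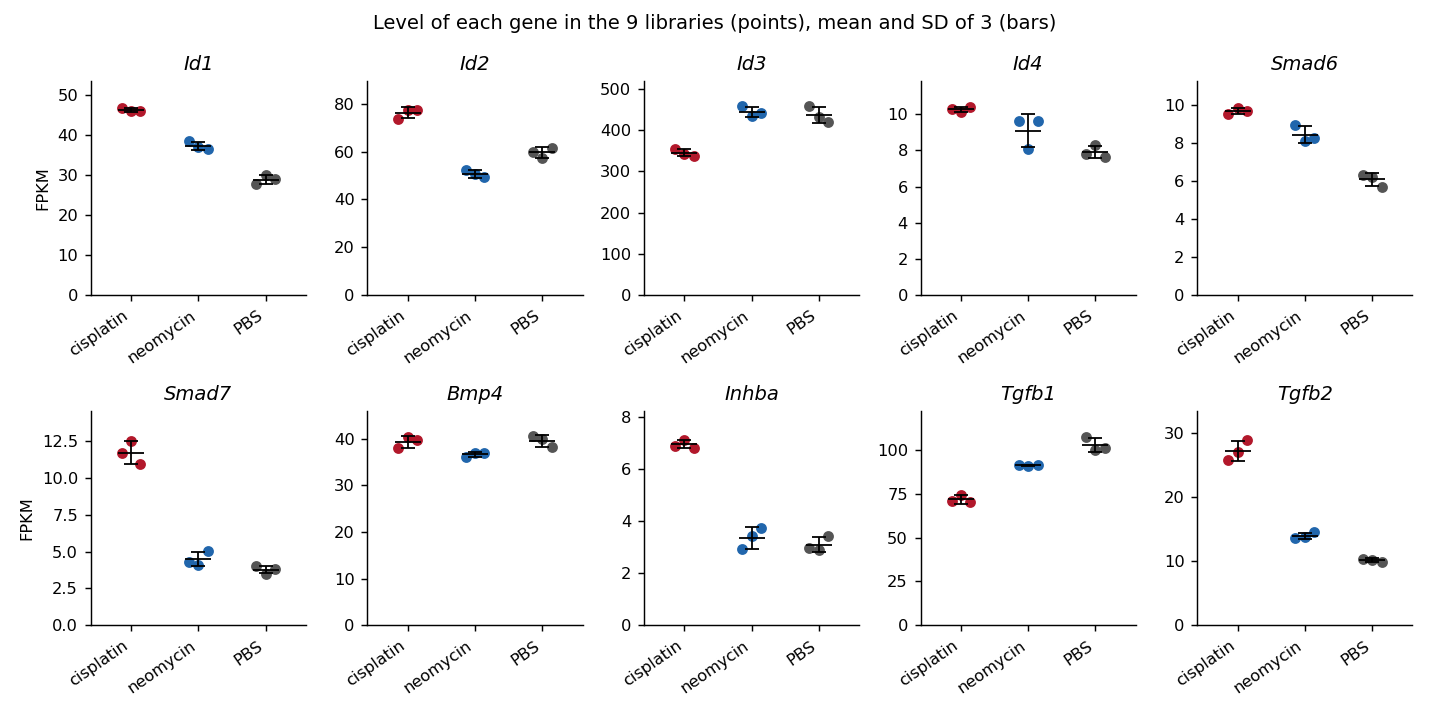
FPKM (vertical axes, from 0) of the 10 genes in each library (points), with the mean and SD of 3 libraries (black bars), for cisplatin, neomycin and PBS from left to right. Smad7, Inhba and Tgfb2 stand apart in the cisplatin libraries, and Id3 and Tgfb1 are lowest there.

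Among the ID genes, Id1 rose with both drugs. Its level was 46.8, 46.0 and 46.0 FPKM in the cisplatin libraries, 38.4, 36.9 and 36.6 FPKM in the neomycin libraries and 27.7, 30.0 and 28.9 FPKM in the PBS libraries. The 3 groups did not overlap, and every cisplatin library lay above every neomycin library. The log2 fold change was 0.66 ± 0.04 for cisplatin (SE; limma adjusted p = 5.83e-09) and 0.36 ± 0.04 for neomycin (adjusted p = 7.83e-06). Set directly against neomycin, cisplatin was higher by 0.30 ± 0.04 on the log2 scale (adjusted p = 1.65e-05), or by 0.10 with quantile normalization (adjusted p = 0.0425).

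Id2 moved in opposite directions with the drugs. Cisplatin libraries held 73.6, 77.4 and 77.5 FPKM of Id2, neomycin libraries 52.2, 50.5 and 49.2 FPKM and PBS libraries 59.9, 57.3 and 61.6 FPKM. Every cisplatin library was above, and every neomycin library below, the PBS libraries. Cisplatin raised Id2 by 0.35 ± 0.04 on the log2 scale (adjusted p = 5.05e-06), and neomycin changed it by -0.23 ± 0.04 (adjusted p = 0.00038). The difference between the drugs was itself called, with cisplatin 0.58 ± 0.04 above neomycin (adjusted p = 1.84e-08). The cisplatin rise was 0.23 with TMM factors and 0.15 with quantile normalization, and it was still called with both.

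Id3 was the most abundant member in all 3 groups. It stood at 355, 342 and 338 FPKM in cisplatin libraries, at 457, 433 and 440 FPKM in neomycin libraries and at 457, 431 and 420 FPKM in PBS libraries. All cisplatin libraries were below the others, while neomycin and PBS libraries overlapped. Id3 thus fell with cisplatin, by a log2 change of -0.34 ± 0.04 (adjusted p = 5.68e-06), against the rise of Id1, Id2 and Id4. With neomycin its log2 fold change was 0.02 ± 0.04 (adjusted p = 0.626), with a 95% interval of -0.07 to 0.12.

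Id4, the scarcest ID gene, was at 10.3, 10.1 and 10.4 FPKM with cisplatin, at 9.62, 8.05 and 9.61 FPKM with neomycin and at 7.79, 8.28 and 7.62 FPKM with PBS. Cisplatin libraries lay above the rest, and neomycin replicate 2 fell within the PBS range. The rise was 0.34 ± 0.07 for cisplatin (adjusted p = 0.000295; 0.22 with quantile normalization). For neomycin the difference of 0.18 ± 0.07 passed the test (adjusted p = 0.0285), but 9 of 17 alternative settings ended the call, with adjusted p-values up to 0.18. Neomycin replicate 1, neomycin replicate 3, PBS replicate 1 and PBS replicate 3 each ended it when left out (adjusted p = 0.106, 0.109, 0.056 and 0.0894).

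The proportions of the ID genes differed with cisplatin. Id3 made up 71.6 to 73.1% of the summed FPKM of the 4 ID genes in cisplatin libraries, 81.9 to 82.2% in neomycin libraries and 81.1 to 82.7% in PBS libraries. Id1 made up 9.64 to 9.75% with cisplatin, 6.83 to 7.00% with neomycin and 5.02 to 5.71% with PBS. Id3 exceeded Id1 by 7.45 ± 0.12 times in cisplatin libraries, 11.9 ± 0.16 times in neomycin libraries and 15.1 ± 1.19 times in PBS libraries (SD, n = 3 each). These are ratios within a library and do not depend on scaling between libraries by a single factor. The summed level was 477 ± 7.09 FPKM with cisplatin, 540 ± 15.4 FPKM with neomycin and 532 ± 18.1 FPKM with PBS.

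**Figure D2:**
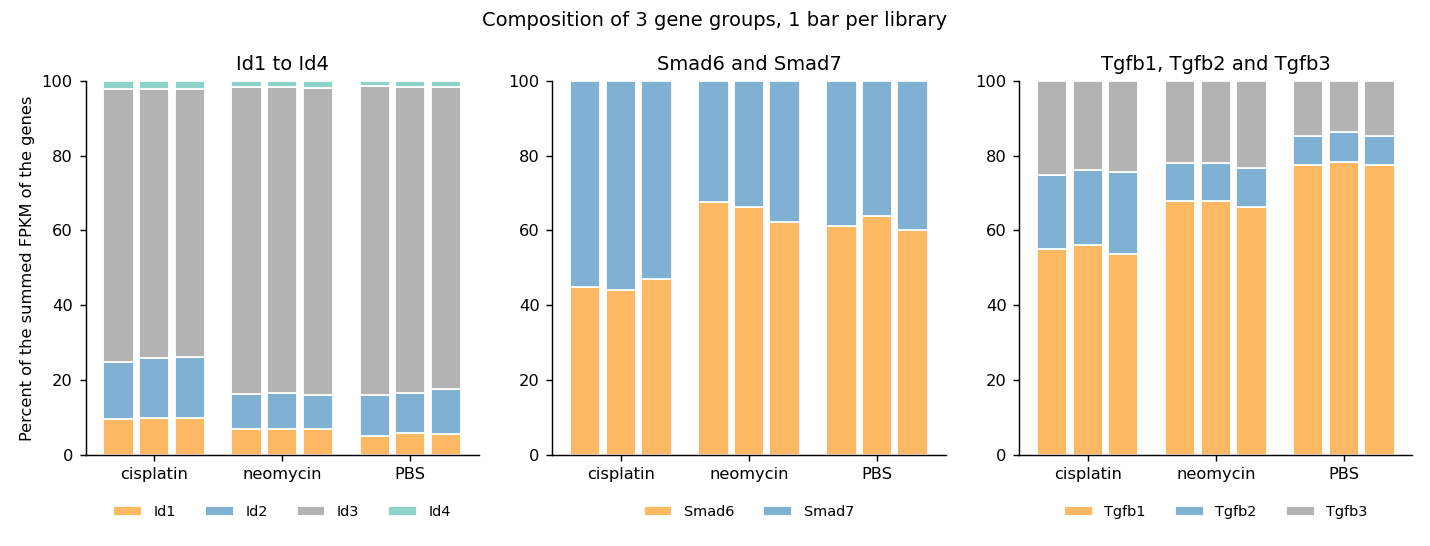
Percent of the summed FPKM (vertical axis) taken by each gene within the ID genes (left), the inhibitory SMAD genes (middle) and the TGF-beta ligand genes (right), with 1 bar for each library of cisplatin, neomycin and PBS. The Id3 share is 71.6 to 73.1% with cisplatin against 81.1 to 82.7% with PBS, and the Tgfb1 share is 53.7 to 56.0% against 77.7 to 78.5%.

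Both inhibitory SMAD genes rose with both drugs, and Smad7 with cisplatin had the largest log2 fold change of the 10 genes. SMAD7 binds activated receptors of both branches and recruits ubiquitin ligases to them. Smad7 stood at 11.7, 12.5 and 10.9 FPKM in cisplatin libraries, at 4.29, 4.12 and 5.01 FPKM in neomycin libraries and at 4.01, 3.51 and 3.79 FPKM in PBS libraries. The cisplatin libraries were 3.10 times the PBS libraries by mean FPKM, and they rested on 2692 to 3362 reads each, against 843 to 1012 reads with PBS. The log2 fold change was 1.41 ± 0.07 (adjusted p = 5.24e-10), and cisplatin also exceeded neomycin, by 1.21 ± 0.07 (adjusted p = 1.66e-09). Neomycin libraries lay just above PBS, by 0.19 ± 0.07 (adjusted p = 0.0312), a call that 6 of 17 alternatives ended, with adjusted p-values up to 0.153. It was lost without neomycin replicate 3 (0.149), PBS replicate 2 (0.116) or PBS replicate 3 (0.0583).

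SMAD6 acts mainly on the BMP branch. Smad6 was at 9.54, 9.84 and 9.67 FPKM with cisplatin, at 8.94, 8.11 and 8.26 FPKM with neomycin and at 6.34, 6.20 and 5.70 FPKM with PBS. Both drugs raised it without overlap with PBS, by 0.59 ± 0.06 for cisplatin (adjusted p = 3.38e-07) and 0.41 ± 0.06 for neomycin (adjusted p = 2.61e-05). Cisplatin was above neomycin by 0.18 ± 0.06 (adjusted p = 0.0105), which was not called with TMM factors (0.12, adjusted p = 0.0811) or quantile normalization (0.14, adjusted p = 0.0534). In FPKM the order of the pair turned over, since Smad6 was 0.831 ± 0.05 times Smad7 with cisplatin, 1.90 ± 0.22 times with neomycin and 1.62 ± 0.14 times with PBS (SD, n = 3 each). In reads Smad7 was ahead with PBS too (843 to 1012 against 620 to 655 for Smad6), so the order rests on the gene lengths used. Levels of different genes were set side by side per length only.

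The 4 ligand genes did not change alike. Tgfb2, a TGF-beta isoform made by many mesenchymal and epithelial cells, stood at 25.7, 26.9 and 28.8 FPKM in cisplatin libraries, at 13.6, 13.7 and 14.5 FPKM in neomycin libraries and at 10.4, 10.2 and 9.89 FPKM in PBS libraries. The groups were fully separate, with cisplatin highest. Its rise was 1.33 ± 0.05 for cisplatin (adjusted p = 3.95e-11) and 0.42 ± 0.05 for neomycin (adjusted p = 1.13e-05), and cisplatin was 0.92 ± 0.05 above neomycin (adjusted p = 1.11e-09).

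Tgfb1, the isoform with the widest expression, went the other way. Cisplatin libraries held 70.7, 74.5 and 70.0 FPKM, neomycin libraries 91.6, 90.8 and 91.2 FPKM and PBS libraries 107, 100 and 101 FPKM. Again no groups overlapped, now with cisplatin lowest. Tgfb1 changed by -0.51 ± 0.04 with cisplatin (adjusted p = 4.63e-08) and by -0.17 ± 0.04 with neomycin (adjusted p = 0.0023). The excess of Tgfb1 over Tgfb2 was 2.65 ± 0.19 times in cisplatin libraries, 6.56 ± 0.24 times in neomycin libraries and 10.1 ± 0.25 times in PBS libraries. With Tgfb3, the remaining isoform, added, the summed FPKM was 131 ± 2.12 with cisplatin, 135 ± 2.15 with neomycin and 132 ± 5.15 with PBS (SD, n = 3 each). The make-up of the 3 isoforms thus shifted, while on the values as deposited their sum moved within the spread of the PBS libraries. Unlike the make-up, the sum depends on scaling between libraries. TMM factors, by which values are divided, were 1.04 to 1.05 for cisplatin and 0.951 to 0.966 for PBS libraries. The sum was not recomputed with them.

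Inhba encodes the beta A subunit that pairs to form activin A. Its level was 6.91, 7.13 and 6.83 FPKM in cisplatin libraries, 2.92, 3.42 and 3.74 FPKM in neomycin libraries and 2.99, 2.88 and 3.44 FPKM in PBS libraries. Cisplatin libraries stood clear of the others, which overlapped. The cisplatin mean was 2.24 times the PBS mean in FPKM, a log2 fold change of 0.96 ± 0.08 (adjusted p = 4.73e-08), which the added 1 FPKM understates (1.14 with a pseudocount of 0.1). For neomycin the change was 0.08 ± 0.08 (adjusted p = 0.348, 95% interval -0.08 to 0.25), and cisplatin exceeded neomycin by 0.87 ± 0.08 (adjusted p = 9.81e-08).

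Bmp4, the BMP ligand of the set and one that acts through SMAD1, SMAD5 and SMAD9, was not called with cisplatin on the values as deposited. It stood at 37.9, 40.4 and 39.6 FPKM with cisplatin, at 36.0, 37.0 and 36.8 FPKM with neomycin and at 40.5, 39.8 and 38.1 FPKM with PBS. Cisplatin and PBS libraries overlapped, and neomycin libraries lay just below both. The log2 fold change was -0.01 ± 0.04 for cisplatin (adjusted p = 0.915, 95% interval -0.10 to 0.09), but -0.13 with TMM factors (adjusted p = 0.0204) and -0.20 with quantile normalization (adjusted p = 0.000813), both called. For neomycin it was -0.10 ± 0.04 (adjusted p = 0.046), and 11 of 17 alternatives ended that call, with adjusted p-values up to 0.111, 8 of them by leaving out 1 library. PBS replicate 3 was the only library whose removal kept it.

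**Figure D3:**
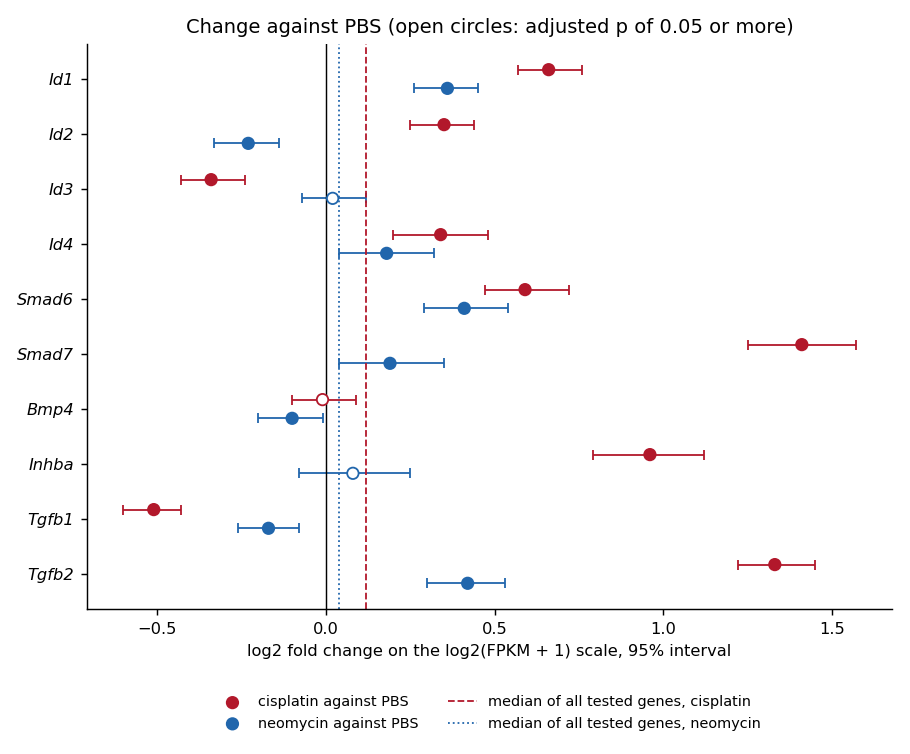
Log2 fold change against PBS (horizontal axis, log2(FPKM + 1) scale) of the 10 genes with 95% intervals from limma, cisplatin in red above neomycin in blue, filled where the adjusted p was below 0.05. The vertical broken and dotted lines are the medians of all tested genes, 0.12 for cisplatin and 0.04 for neomycin, and Smad7 and Tgfb2 lie farthest to the right at 1.41 and 1.33.

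Scaling bears on the small changes. With cisplatin the median of all tested genes was 0.12, and TMM factors brought it to 0.01 and the share of calls that were higher to 50.8%, against 60.9% on the values as deposited. Relative to that median, Id2 and Id4 rose by about what TMM factors gave (0.23 for each), and the falls of Id3 and Tgfb1 deepened (-0.46 and -0.64). The median of the 10 members was 0.47 for cisplatin and 0.13 for neomycin, beside 0.12 and 0.04 over all tested genes.

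Cisplatin against neomycin called all 10 members, 8 higher and 2 lower (Id3 and Tgfb1), beside 81.6% of all tested genes (45.0% higher and 36.6% lower). The libraries of the 2 drugs did not overlap for any of the 10, beside 45.7% of tested genes wholly higher and 37.6% wholly lower. On the log2(FPKM + 1) scale Smad7 alone was at least 2-fold higher (7.53% of tested genes were) and none was 2-fold lower (5.92%), while the ratio of mean FPKM was also above 2 for Inhba (2.07). Id4, Smad6 and Bmp4 were not called in this comparison with TMM factors, and Bmp4 turned from 0.10 to -0.10 with quantile normalization (adjusted p = 0.0465 and 0.043). The Id4 call (0.16 ± 0.07, adjusted p = 0.035) was also lost without cisplatin replicate 1, 2 or 3 or neomycin replicate 2, with adjusted p-values of 0.0572 to 0.207. The Bmp4 call was lost without cisplatin replicate 2 or 3, neomycin replicate 1, 2 or 3, or PBS replicate 2, with adjusted p-values of 0.058 to 0.159. Smad7, Tgfb2, Inhba and Id2, with log2 differences of 1.21, 0.92, 0.87 and 0.58, were the members farthest above neomycin.

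The order of the 10 levels was largely shared. Id3 came first in all 3 groups and Inhba last. Tgfb1 was the second with neomycin (91.2 ± 0.39 FPKM) and PBS (103 ± 3.59 FPKM), and with cisplatin it was the third (71.7 ± 2.43 FPKM) behind Id2 (76.1 ± 2.24 FPKM), with libraries of the genes overlapping (SD, n = 3 each). Smad7 was the seventh with cisplatin and the ninth with neomycin and PBS. Id1 and Bmp4 did not differ beyond their spread with neomycin (37.3 ± 0.98 and 36.6 ± 0.50 FPKM), while with cisplatin Id1 was higher (46.3 ± 0.45 against 39.3 ± 1.26 FPKM) and with PBS Bmp4 was higher (28.9 ± 1.16 FPKM for Id1 against 39.5 ± 1.2 FPKM). Whether reads of this mouse line were counted on mouse or rat gene models could not be settled, which limits orders between genes more than differences between groups.

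Other genes of the pathway were taken from 8 lists arranged by role, with 130 genes in all, of which 117 were in the table and 84 passed the filter of a mean of 1 FPKM. With cisplatin 35 rose and 34 fell (82.1% called, against 78.0% of all tested genes), and with TMM factors 31 rose and 43 fell. With neomycin 37 rose and 29 fell (78.6% called, against 66.2% of all). Cisplatin against neomycin gave 34 higher and 38 lower (85.7% called, against 81.6%). The median log2 fold change of the 84 genes was -0.06 with cisplatin and 0.02 with neomycin. The counts of each list below stand beside 47.5% of all tested genes called higher and 30.5% called lower with cisplatin. With neomycin those shares were 37.5% and 28.7%. No list was tested as a set.

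Genes of the ligand list that passed the filter were Tgfb3, Gdf11, Bmp6 and Bmp1, the last a procollagen-cleaving protease and not a ligand of the family. With cisplatin Tgfb3 and Gdf11 rose, Bmp6 was not called and Bmp1 fell, and with neomycin all 4 rose (3 with TMM factors). Tgfb3 was at 31.8 ± 0.45 FPKM with cisplatin, 30.3 ± 1.59 FPKM with neomycin and 19.0 ± 1.56 FPKM with PBS, a rise of 0.72 ± 0.06 and 0.65 ± 0.06 on the log2 scale. Gdf11, a relative of myostatin, rose more with neomycin (1.16 ± 0.07) than with cisplatin (0.43 ± 0.07), with a difference between the drugs of -0.73 ± 0.07 (adjusted p = 3.29e-07). Bmp2 was measured but stayed below the filter, at 0.298 FPKM with cisplatin, 0.353 FPKM with neomycin and 0.405 FPKM with PBS.

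Receptor genes moved in both directions. Of 10 tested receptor and coreceptor genes 2 rose and 4 fell with cisplatin (2 and 6 with TMM factors), and 4 rose and 2 fell with neomycin (4 and 3 with TMM factors). Tgfbr3, betaglycan, which presents TGF-beta2 to the signalling receptors, fell to 8.59 ± 0.36 FPKM with cisplatin, against 16.0 ± 0.89 FPKM with neomycin and 16.2 ± 0.915 FPKM with PBS (log2 fold change with cisplatin -0.84 ± 0.06, adjusted p = 9.53e-09). The BMP type I receptor gene Acvr1 fell with both drugs (-0.76 ± 0.06 and -0.54 ± 0.06), and the activin type I receptor gene Acvr1b rose with both (0.29 ± 0.08 and 0.60 ± 0.08). Among 12 signalling SMADs and cofactors 3 rose and 5 fell with cisplatin (2 and 7 with TMM factors), and 3 rose and 8 fell with neomycin. The examples with the largest changes were Zfyve9, a SMAD anchor (-0.69 ± 0.06 with cisplatin, -0.19 ± 0.06 with neomycin), Runx2 (-0.61 ± 0.07 and -0.33 ± 0.07) and the coactivator Crebbp, which fell with cisplatin (-0.19 ± 0.06) and rose with neomycin (0.52 ± 0.06).

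Secreted inhibitors and ligand-storage genes mostly fell with cisplatin and rose with neomycin. Of 11 tested genes 8 fell and 3 rose with cisplatin, beside 30.5% lower and 47.5% higher over all tested genes. With neomycin 10 rose and none fell (9 with TMM factors or quantile normalization), beside 37.5% higher and 28.7% lower. Fst encodes follistatin, which traps activin. It stood at 14.4, 15.0 and 13.9 FPKM in cisplatin libraries, at 3.79, 3.25 and 3.77 FPKM in neomycin libraries and at 3.59, 3.13 and 3.27 FPKM in PBS libraries. The cisplatin libraries were above all others, as for Inhba, with a log2 fold change of 1.83 ± 0.07 (adjusted p = 1.71e-11), and the change with neomycin was 0.09 ± 0.07 (adjusted p = 0.268). Thbs1, thrombospondin 1, which can release latent TGF-beta, was at 186 ± 5.60 FPKM with cisplatin, 68.7 ± 3.28 FPKM with neomycin and 59.6 ± 4.01 FPKM with PBS (1.63 ± 0.05 and 0.20 ± 0.05 on the log2 scale). Ltbp2, a matrix protein of the latent TGF-beta binding family, fell to 44.0 ± 2.14 FPKM with cisplatin, against 162 ± 5.4 FPKM with neomycin and 141 ± 7.82 FPKM with PBS (-1.66 ± 0.05 with cisplatin, 0.20 ± 0.05 with neomycin). The fibroblast marker genes, which include several matrix genes, summed lower in the cisplatin libraries by the values given above, and their part in these falls was not tested. In bulk RNA fewer cells of a type and less RNA per cell cannot be told apart.

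Intracellular inhibitors were mixed. Of 14 tested genes 6 rose and 4 fell with cisplatin (3 and 7 with TMM factors), and 2 rose and 6 fell with neomycin. Pmepa1, a TGF-beta-induced membrane protein that sequesters SMAD2 and SMAD3, was at 30.2 ± 1.47 FPKM with cisplatin, 5.65 ± 0.51 FPKM with neomycin and 9.51 ± 0.49 FPKM with PBS. It rose by 1.57 ± 0.06 with cisplatin (adjusted p = 5.55e-11) and changed by -0.66 ± 0.06 with neomycin (adjusted p = 1.03e-06). Tob1, an antiproliferative adaptor, rose with both drugs (1.62 ± 0.06 and 0.28 ± 0.06). Tgif1, a SMAD corepressor, fell with neomycin (-0.87 ± 0.07, adjusted p = 9.97e-08). With cisplatin its log2 fold change was -0.14 ± 0.07 (adjusted p = 0.0727), and -0.26 with TMM factors (adjusted p = 0.00326).

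Targets described for TGF-beta moved in both directions. Of 17 tested targets 11 rose and 6 fell with cisplatin, with a median of 0.69 on the log2 scale. With neomycin 6 rose and 8 fell, with a median of -0.10. Col1a1, Col1a2 and Fn1, which fell with cisplatin, are also among the fibroblast marker genes. Ccn2 and Junb rose with cisplatin, to 304 ± 12.3 and 305 ± 8.08 FPKM, against 44.2 ± 6.78 and 69.7 ± 4.76 FPKM with PBS, and Col1a1, a collagen chain on the same list, fell by 2.14 on the log2 scale. With neomycin the log2 fold changes of Ccn2 and Junb were -0.06 ± 0.08 and -0.10 ± 0.06, neither called (adjusted p = 0.498 and 0.191). Of 8 tested BMP targets outside the set 6 rose and 1 fell with cisplatin (5 and 1 with quantile normalization, 6 and 2 with TMM factors), and 4 rose and 3 fell with neomycin. Hes1 and Bhlhe40 rose with cisplatin (0.98 ± 0.05 and 0.84 ± 0.06) and fell with neomycin (-0.35 ± 0.05 and -0.44 ± 0.06), the pattern also seen for Id2. Gata3, a transcription factor of the developing inner ear, rose with cisplatin (0.74 ± 0.08), and its change with neomycin was -0.03 ± 0.08 (adjusted p = 0.717). Many of these targets also answer to other signals.

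Genes of E proteins and other bHLH factors, the partners of ID proteins, came last. Of 8 tested E protein and bHLH genes 5 fell and 2 rose with cisplatin (6 and 2 with TMM factors or quantile normalization). With neomycin 4 rose and 2 fell (3 and 2 with TMM factors). Tcf4, an E protein, was at 1.06 ± 0.11 FPKM with cisplatin, 3.47 ± 0.30 FPKM with neomycin and 2.24 ± 0.345 FPKM with PBS (-0.65 ± 0.09 and 0.47 ± 0.09 on the log2 scale). Hes6 fell with cisplatin (-0.43 ± 0.08) and rose with neomycin (0.78 ± 0.08). Twist1, a mesenchymal bHLH factor, fell with cisplatin (-0.65 ± 0.06), and its change with neomycin was -0.06 ± 0.06 (adjusted p = 0.44).

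**Figure D4:**
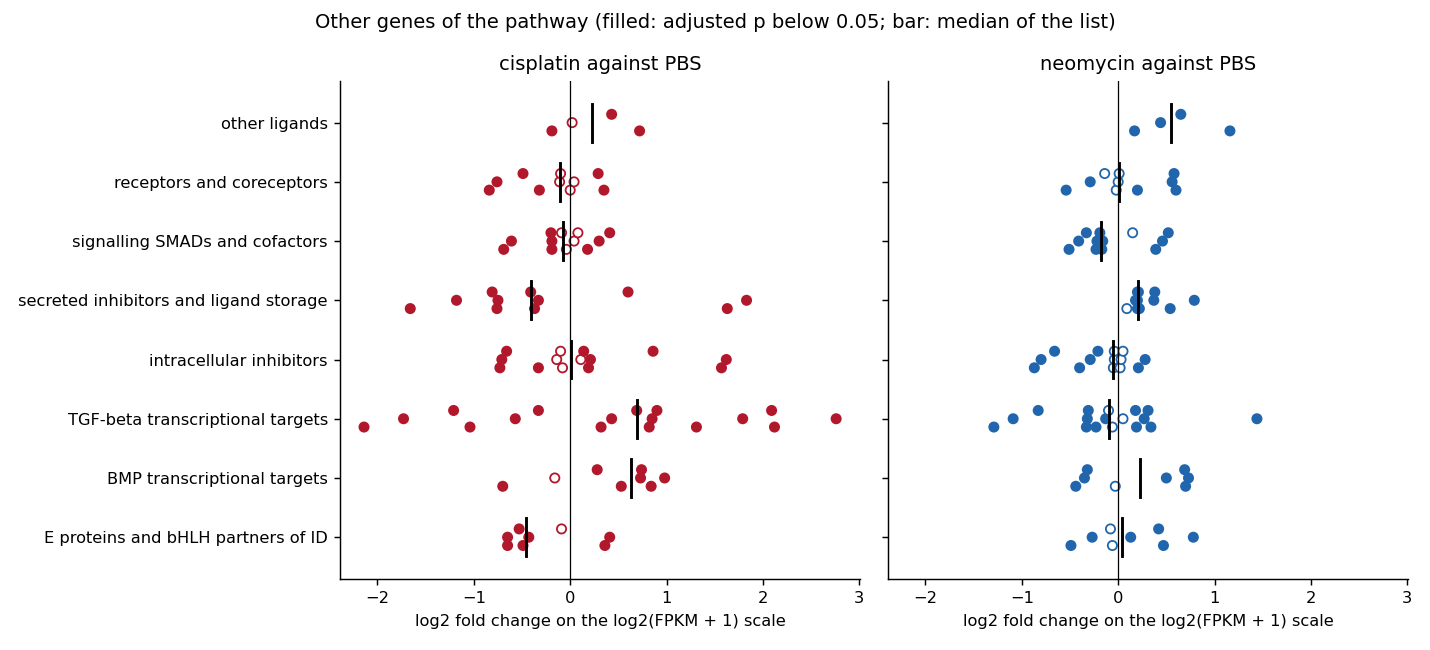
Log2 fold change (horizontal axes, log2(FPKM + 1) scale) of the 84 tested genes of the 8 role lists (rows) for cisplatin against PBS (left) and neomycin against PBS (right). Each point is a gene, filled where the adjusted p was below 0.05, and vertical bars are list medians, which for secreted inhibitors and ligand storage were -0.41 with cisplatin and 0.21 with neomycin.

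Genes whose pattern over the 9 libraries was most like that of a member were ranked by Pearson's r of log2(FPKM + 1) among 10077 genes. These were the tested genes without the members and without names of predicted genes or pseudogenes, and the counts below hold for them only. Since the libraries form 3 tight groups, r mostly reflects the order of 3 group means, and it is given as a description. For Id1 the nearest were C2h4orf46 (r = 0.995), Melk (r = 0.995) and Cdca2 (r = 0.995), the last a mitotic chromatin protein, and 20 genes passed 0.99. Melk stood at 48.0 ± 0.38 FPKM with cisplatin, 32.1 ± 0.90 FPKM with neomycin and 19.0 ± 1.42 FPKM with PBS. Otud3 (r = 0.998), Zswim3 (r = 0.997) and Neurl3 (r = 0.997) were nearest to Smad7, and 54 genes passed 0.99. Mepce, Rad54b and Ube2t were nearest to Tgfb2 (r = 0.996 for each), Nfrkb (r = 0.997), Ubxn2b (r = 0.995) and Arl6ip6 (r = 0.994) to Inhba, and Unc5b (r = 0.996), Plekha7 (r = 0.995) and Dap (r = 0.995) to Tgfb1. Id2 was nearest to Zup1 (r = 0.996), Zfp105 (r = 0.994) and Nolc1 (r = 0.993), the last a nucleolar protein, and Id3 to Ccdc8 (r = 0.995) and Fam20c (r = 0.994). Bmp4 and Id4 had no gene above 0.99, with Tmem17 (r = 0.944) and C10h1orf35 (r = 0.975) the nearest.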

How the data were processed

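Groups and replicate numbers came from the sample titles, and columns were matched to samples through the descriptions. The authors deposited FPKM values for 19608 genes, per the file headers. The genome build is mm10 per the submitters' processing notes, while the labels and gene identifiers are those of rat. No source used here names the aligner or the counter. Per the labels' protocols, libraries were made from total RNA with an mRNA kit.

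In each library the FPKM of a gene was a whole multiple of 1 read, and whole reads were worked out for all 19608 genes (each value lay within 0.001 read of a whole number). They gave the depth and 1 alternative test, voom, which called 8312, 6980 and 8595 genes for cisplatin against PBS, neomycin against PBS and cisplatin against neomycin, against 8216, 6973 and 8598 on FPKM. Members rested on 360 to 15120 reads per library.

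The 10532 genes that averaged 1 FPKM or more over the 9 libraries were tested on log2(FPKM + 1) with limma 3.58.1 in R 4.3.3, with 1 mean per group, all 9 libraries, a mean-variance trend and Benjamini-Hochberg adjustment over all tested genes. Fold changes on this scale are smaller than FPKM ratios for low genes. The members and lists were chosen with earlier results of these data known. Named genes are all members, up to 3 called genes per role list by size, and up to 3 of the most alike genes per member. Those of Smad6, 2 each of Id4 and Bmp4, and 1 of Id3 are not reported here. No library was a copy of another: chi-square over degrees of freedom was 3.97 to 12.45 between libraries of the same treatment.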

Additional observations from a re-analysis of the deposited data

How the results depend on the processing

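Each of the 30 differences of a member (10 genes in 3 comparisons) was recomputed under up to 17 alternatives, and 23 kept their side of the threshold under every alternative run. Of these 23, the called ones kept their sign, and 2 that were not called changed it, both for neomycin against PBS: Id3 was -0.03 with TMM factors and Inhba was -0.02 with quantile normalization. Those that did not keep their side were Bmp4 in all 3 comparisons, Id4 and Smad7 for neomycin against PBS, and Id4 and Smad6 for cisplatin against neomycin. Members called for neomycin numbered 5 with quantile normalization, against 8, and 5 to 7 when a library was left out, 5 of them without neomycin replicate 3. Those for cisplatin numbered 9 with every library left out in turn, and those for cisplatin against neomycin 8 to 10. Bmp4 reversed for cisplatin against neomycin with quantile normalization (-0.10). With voom on recovered reads the members called were 9, 6 and 8. Inhba gave no value with a minimum mean of 5 FPKM. The cause of these shifts was not tested. The labels do not say that replicate numbers pair the samples. The 9 same-numbered pairs had correlations of -0.05 to 0.30 in their deviations from group means, 5 of them over 0.1. A library was most like its own number in 11 of 18 cases, each with 3 libraries to choose from. The cases share correlations and are not independent. They are at most a hint of shared numbers, which does not hold for every pair. With the replicate block the members called were 9, 8 and 10, the same as without it, and 71, 67 and 72 other pathway genes were called, against 69, 66 and 72.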
